A study of Mus musculus with 24 samples.

Results

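F9 embryonal carcinoma cells were compared with 2 mouse embryonic stem (ES) cell lines, and the genes of interest were the autosomal genes that differed from both ES lines in the same direction. Of 8612 autosomal genes tested, 3031 (35.2%) met that rule: 1611 (18.7%) were higher and 1420 (16.5%) were lower in F9 cells. The comparison used 6 of the series' 24 Illumina MouseRef-8 v2 arrays, 2 each of the groups labelled F9 EC, ESCm and ESCf. ESCm is a male ES line, ESCf is a female ES line labelled OG2, the name of a mouse strain with a green fluorescent reporter driven by Pou5f1 sequences, and F9 EC is labelled as male carcinoma cells with no transgene named. The labels call the arrays of a group biological replicates and state neither a culture medium nor a feeder layer for these groups. Each group is 1 line, so a difference between groups is a difference between lines, and the p-values measure only the spread between these arrays.

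ES cells come from the inner cell mass of the blastocyst and can form all tissues of the embryo. F9 is a classic line of embryonal carcinoma, the stem cell of teratocarcinoma: it keeps the pluripotency factors Pou5f1, Sox2 and Nanog, differentiates little when left alone, and turns into extraembryonic endoderm when given retinoic acid. Many tumour-derived lines also carry gains and losses of chromosomes, which an expression array does not measure directly.

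The 6 arrays were of like quality. Their median probe signals lay between 125 and 136 intensity units, and 9840 to 10748 of 25697 probes were detected on each at a detection p under 0.01. Across genes, the 2 arrays of a group correlated at 0.993 or more, the ESCm and ESCf arrays at about 0.969, and F9 EC arrays with ES arrays at 0.918 to 0.933. Genes are not independent replicates, so these correlations describe the arrays and test nothing. The Y-linked transcript Eif2s3y was detected on both ESCm arrays (9.78 and 9.70 log2 units) and on neither F9 EC array (4.48 and 4.41), although F9 is labelled male. It was also undetected on the ESCf arrays (4.56 and 4.46), while the P19 EC mean was 9.33. Xist, the RNA that coats the inactive X chromosome, was detected on none of the 6 arrays.

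Markers of fibroblasts, the cells on which ES lines are often grown, separated F9 from both ES lines. Their summed signal over 25 tested genes was 6349 to 6703 intensity units on the F9 EC arrays, 14950 to 15300 on the ESCm arrays and 17930 to 18860 on the ESCf arrays. Both F9 EC arrays detected 8 of the 25 genes, and the ES arrays detected 22 or 23. Col1a1, Col3a1, Dcn, Lox and Acta2, which mark fibroblasts and smooth-muscle-like cells, were detected on all 4 ES arrays and on no F9 EC array. The part of these markers in any difference between F9 and ES cells was not tested. In bulk RNA, fewer cells of a type and less RNA per cell cannot be told apart.

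Differences were tested with limma and are given as log2 differences with their standard errors (n = 2 arrays for F9 EC and 4 for the ES lines, whose 2 group means weigh equally). A gene was called at a Benjamini-Hochberg adjusted p under 0.05 over all 8932 tested genes. F9 EC differed from ESCm at 4306 genes (48.2%), of which 2195 were higher, and from ESCf at 4488 genes (50.2%), of which 2360 were higher. The 2 ES lines differed from each other at 2083 genes (23.3%), and at least 2-fold at 5.81%. The corresponding share past 2-fold was 17.5% for F9 EC against ESCm and 19.9% against ESCf. With both ES lines pooled, 4780 genes were called (53.5%). Among the autosomal genes, 1047 were called against ESCm alone, 1216 against ESCf alone and 57 in opposite directions, while 3261 (37.9%) were called against neither. The 2 comparisons share the F9 EC arrays, so an error on those arrays would appear in both. Shared calls were often small: the median size was 0.79 log2 units and the smallest 0.29, and 507 higher (5.89%) and 523 lower genes (6.07%) differed at least 2-fold from each ES line. Scaling the arrays by their medians instead of quantiles moved the median autosomal difference from 0.03 to 0.149, and the shared genes then split into 1937 higher and 1067 lower.

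**Figure D1:**
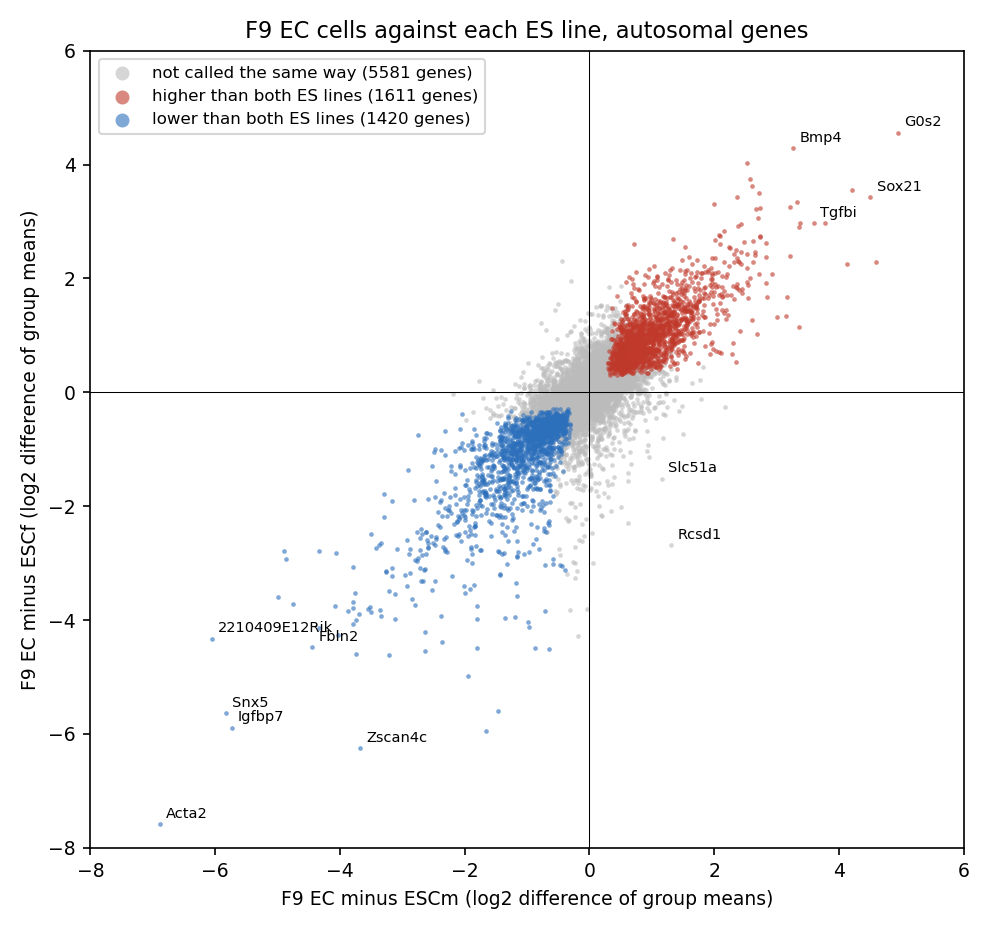
Each point is an autosomal gene, with the log2 difference of F9 EC from ESCm on the x axis and from ESCf on the y axis. The 1611 genes called higher than both lines are red, the 1420 called lower are blue, and Acta2 lies farthest to the lower left.

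The largest rises included regulators of cell identity, secreted factors and transporters. G0s2, an inhibitor of the fat-cleaving enzyme adipose triglyceride lipase, lies on chromosome 1. It stood at 10.27 and 10.25 log2 units on the F9 EC arrays, 5.30 and 5.33 on the ESCm arrays, and 6.04 and 5.36 on the ESCf arrays. It was 26.9-fold higher in F9 (log2 difference 4.75 ± 0.22, adjusted p = 8.4e-12), and 1 of the 4 ES arrays detected it.

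A pair of Sox transcription factors followed, both on chromosome 14. Sox7, a regulator of endoderm and blood vessels, measured 9.60 and 9.75 in F9 EC, 5.68 and 5.26 in ESCm, and 5.95 and 6.29 in ESCf, a 14.7-fold difference (3.88 ± 0.18, adjusted p = 5.8e-12). Sox21, a neural repressor, measured 11.33 and 11.27 in F9 EC, 6.70 and 6.89 in ESCm, and 7.78 and 7.96 in ESCf, 15.6-fold higher (3.97 ± 0.22, adjusted p = 9.9e-11). All other kept probes of both genes were higher in F9 too, with differences of 3.39 for Sox7 and of up to 2.41 for Sox21. Neither gene was high in the other carcinoma line, P19 EC, with means of 4.81 for Sox7 and 4.93 for Sox21.

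Bmp4, a secreted signal that sustains self-renewal of ES cells together with LIF, stood at 12.19 and 12.06 in F9 EC, 8.80 and 8.90 in ESCm, and 7.90 and 7.75 in ESCf. The difference was 13.7-fold (3.78 ± 0.22, adjusted p = 1.5e-10). Id1, a direct target of BMP signalling, read 10.59 and 10.52 in F9 EC, 8.62 and 8.49 in ESCm, and 7.18 and 7.31 in ESCf, 6.29-fold higher. Of 15 tested genes of the BMP pathway, 2 were higher, Bmp4 and Id1, and 2 were lower, Gata2 and the inhibitory Smad6, 1 of whose probes was not called. These shares, 13.3% each way, are below those of all autosomal genes (18.7% higher and 16.5% lower). The other called rises near the top were Tgfbi, a matrix protein induced by TGF-beta (9.76-fold), the small heat-shock protein gene Hspb6 (10.4-fold), the transcription factor genes Mef2b (8.73-fold) and Bcl11a (at least 5.27-fold), and the antioxidant enzyme gene Pon2 (8.63-fold). A fold written "at least" is a lower bound, used where no array on the dimmer side (F9 EC or the 4 ES arrays) detected the probe: the brighter mean was then set against the dimmer arrays' detection limit. A log2 difference printed beside such a fold, or for another probe of the gene, is the fitted difference of the measured values and is not a bound.

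For 5 of the 15 largest rises no ES array detected the transcript. Slc7a11, the cystine importer, measured 7.74 and 7.83 in F9 EC and 4.43 to 4.47 on the 4 ES arrays (at least 4.64-fold, adjusted p = 1.8e-11). P2rx3, an ATP-gated channel of sensory neurons, measured 7.96 and 7.64 against 4.48 to 4.61 (at least 4.68-fold). The remaining 3 were Bcl11a and the neighbours Aspg, an asparaginase, and Tmem179, a membrane protein gene, at least 3.52-fold and at least 3.54-fold higher. Bahcc1 was 7.94-fold higher by its brightest probe, but its other probes gave 1.08 and 0.42 log2 units, the second of them not called. Otub2, a deubiquitinase detected on 1 of the 4 ES arrays, was higher by all 3 of its probes (2.89 for the brightest, 2.58 and 2.81 for the others).

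**Figure D2:**
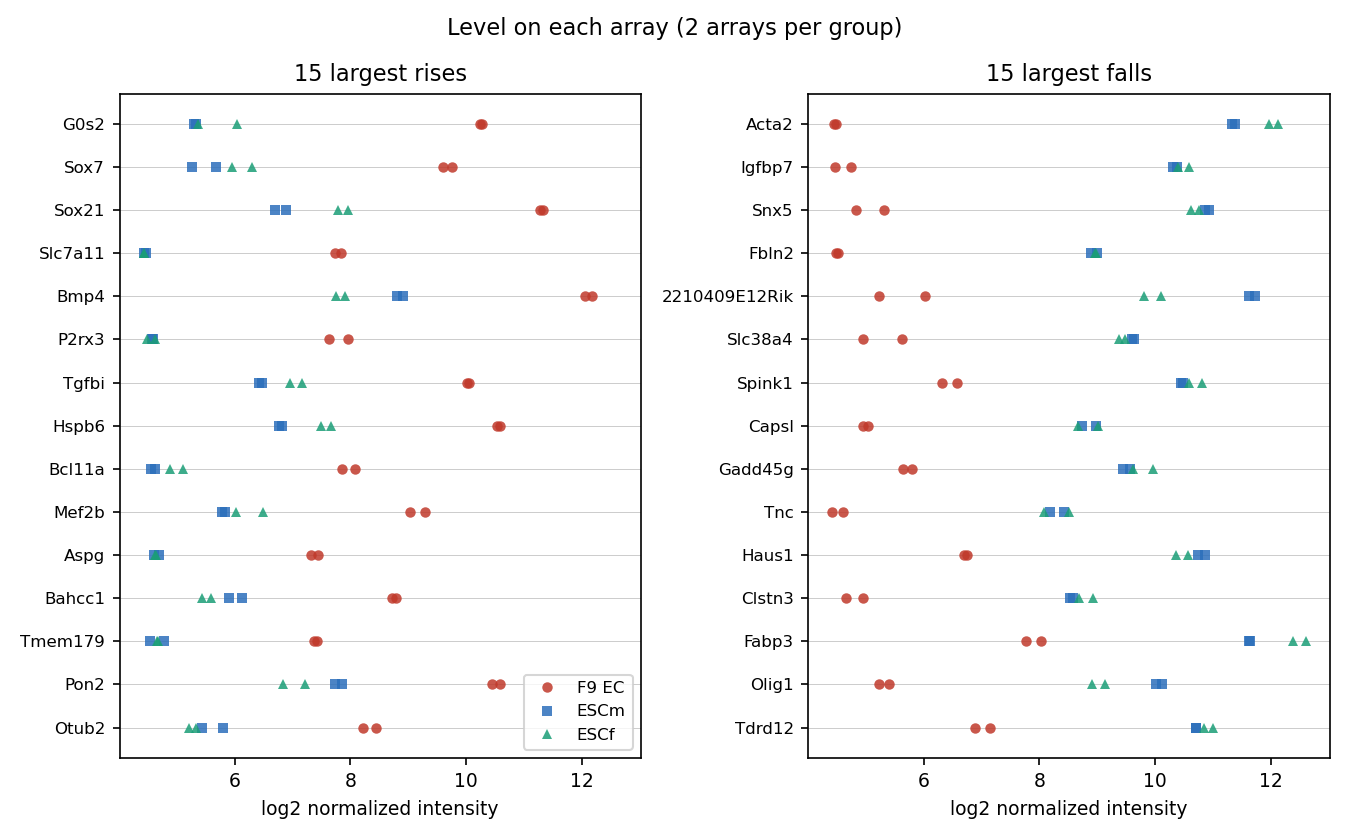
Log2 normalized intensity on each F9 EC (circles), ESCm (squares) and ESCf (triangles) array for the 15 largest shared rises and the 15 largest shared falls. Only genes whose F9 EC and ES arrays did not overlap were eligible, so the separation in every row was set by the choice of genes. Acta2 shows the widest gap.

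The largest falls were led by contractile, matrix and secreted proteins. Acta2, smooth muscle actin on chromosome 19, stood at 4.45 and 4.48 in F9 EC, 11.38 and 11.34 in ESCm, and 12.13 and 11.98 in ESCf. That is at least 62.8-fold lower in F9 (log2 difference -7.24 ± 0.13, adjusted p = 4.7e-17), and the other 3 probes were also lower, by -3.54 to -4.34. Igfbp7, a secreted binding protein of insulin-like growth factors on chromosome 5, measured 4.75 and 4.47 in F9 EC against 10.30 to 10.59 on the ES arrays, at least 25.7-fold lower. Fbln2 and Tnc, both matrix glycoproteins, were at least 9.34-fold and at least 5.91-fold lower. The other Fbln2 probe gave a smaller fall, -1.42 log2 units, and the other Tnc probe gave -3.49. Acta2 and Fbln2 are themselves members of the fibroblast list above, whereas Igfbp7 and Tnc are not.

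The other large falls were also of genes outside the fibroblast list. Snx5, an endosomal sorting nexin on chromosome 2, measured 5.32 and 4.82 in F9 EC, 10.93 and 10.86 in ESCm, and 10.63 and 10.77 in ESCf (at least 33.4-fold, adjusted p = 3.9e-13), and its other probe was lower by -4.40. Outside this comparison its mean was 9.89 in P19 EC and 5.27 in the male epiblast stem cell line EpiSCm, so low readings also occurred outside F9. Haus1, a subunit of the spindle complex augmin, was 15.1-fold lower (6.70 and 6.75 in F9 EC against 10.37 to 10.87), and its mean was 10.20 in P19 EC and 7.51 in EpiSCm, so it too was low outside F9. Fabp3, a fatty-acid carrier, was 18.0-fold lower, and Gadd45g, a stress and differentiation gene, 15.2-fold lower. The other Gadd45g probe gave a smaller fall, -1.93 log2 units. Slc38a4, an imprinted amino-acid transporter gene, was at least 13.9-fold lower, and the neural gene Olig1 at least 14.0-fold lower. Spink1, a protease inhibitor, was 17.7-fold lower, at 6.58 and 6.31 on the F9 EC arrays, and the mean of F9 cells with Sox2 overexpressed was 8.68. The remaining falls among the 15 largest were the uncharacterized 2210409E12Rik (36.5-fold), Capsl (at least 8.67-fold), Clstn3 (14.7-fold) and the germ-line gene Tdrd12 (13.9-fold).

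Among the factors that define pluripotency, Pou5f1 and Nanog differed from the pooled ES lines by less than 0.5 log2 units, and the probes of Sox2 disagreed. The brightest Sox2 probe stood at 9.48 and 9.42 in F9 EC, 9.79 and 9.68 in ESCm, and 9.40 and 9.64 in ESCf, and the difference was not called (-0.17 ± 0.11, adjusted p = 0.2). The other Sox2 probe disagreed and was lower in F9 (-1.20 ± 0.13, adjusted p = 7.0e-07), so the arrays give no single direction for Sox2. Pou5f1 was called lower in the pooled comparison (-0.38 ± 0.11, adjusted p = 0.0085) but not against each line, and its other probe gave 0.08. Nanog was lower by a small amount: 12.15 and 12.54 in F9 EC against 12.70 to 12.88 on the ES arrays (-0.44 ± 0.12, 1.36-fold, adjusted p = 0.0057). That call was lost without F9 EC replicate 1 (-0.25, adjusted p = 0.19) and under median scaling (-0.35, adjusted p = 0.088). Of 18 tested core pluripotency genes, 1 was higher and 6 were lower than both ES lines (5.56% and 33.3%). The list median was -0.31 against 0.03 over all autosomal genes. Shares of this and later lists are to be read against 18.7% higher and 16.5% lower of all autosomal genes. The count of lower core genes was 3 without F9 EC replicate 1, and also 3 under median scaling. Utf1, a chromatin-bound cofactor, was the 1 higher gene (1.75-fold). Fgf4, the growth factor through which ES cells exit self-renewal, was 3.06-fold lower, Dppa4 2.67-fold and the RNA-binding regulator Lin28a 1.85-fold. Tdgf1, a co-receptor of Nodal, was 1.74-fold lower by its brightest probe and lower by -2.70 by the other.

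Genes of the naive state, the state of ES cells before implantation, went both ways. Of 18 tested, 6 were higher and 9 were lower than both ES lines (33.3% and 50%). The higher ones were mostly transcription factors. Nr5a2, an orphan nuclear receptor, measured 10.51 and 10.29 in F9 EC, 7.83 and 8.12 in ESCm, and 7.32 and 7.57 in ESCf (6.45-fold, adjusted p = 2.0e-11), although 1 of its other probes was not called (0.53). Zfp42, also known as Rex1, measured 11.98 and 12.02 in F9 EC, 9.99 and 9.83 in ESCm, and 9.40 and 9.38 in ESCf (5.10-fold, adjusted p = 1.9e-09). Klf5, a Krüppel-like factor, measured 14.09 and 14.01 against 11.83 to 12.03 (4.43-fold, adjusted p = 1.7e-11). These F9 readings stood clear of every ES array, as did those of nearly all shared genes (3025 of 3031). Tcl1, an Akt cofactor, was 2.64-fold higher, Gbx2 2.52-fold and the nuclear receptor gene Esrrb 2.06-fold.

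The lower naive genes were led by Dppa3, also called Stella, which protects maternal DNA methylation in the zygote. It stood at 6.64 and 5.99 in F9 EC, 10.19 and 10.03 in ESCm, and 9.36 and 9.40 in ESCf (10.8-fold lower, adjusted p = 8.2e-11). Klf4, a target of LIF signalling, stood at 8.56 and 8.96 in F9 EC, 10.76 and 10.75 in ESCm, and 10.48 and 10.30 in ESCf (3.51-fold lower, adjusted p = 9.0e-08), and all 3 probes agreed. Klf4 and Klf5, members of the same factor family, therefore differed from ES cells in opposite directions. The adhesion genes Jam2 and Pecam1 were 4.79-fold and 3.46-fold lower, Fbxo15 2.87-fold, Manba 2.00-fold, Dnmt3l 1.80-fold and Dppa5a 1.70-fold. Klf2, Stat3 and Tbx3 were not called, with differences of 0.19, -0.24 and -0.11.

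P19 EC, a carcinoma line derived from a postimplantation embryo, served as a second carcinoma line, and its comparison uses the same F9 EC arrays. Its means were 5.69 for Zfp42, 6.22 for Esrrb, 4.75 for Nr5a2, 4.56 for Tcl1 and 9.10 for Klf5. Over all genes F9 EC and P19 EC differed at 4920 (55.1%), 2416 of them higher and 2504 lower in F9 EC. F9 EC was higher at each of the 5 naive genes just given (adjusted p from 1.0e-14 for Zfp42 to 3.1e-18 for Tcl1, with Esrrb, Nr5a2 and Klf5 between them). Among the genes of the primed, postimplantation state, Fgf5 was detected on no F9 EC or ES array. Of 21 tested primed genes, 1 was higher in F9 than in both ES lines, the POU factor gene Pou3f1 (2.28-fold). Another 7 were lower, with a median of -0.10. These shares were 4.76% higher and 33.3% lower, against 18.7% and 16.5% of all autosomal genes. Lefty2, an inhibitor of Nodal, was 7.31-fold lower, at 8.07 and 8.13 in F9 EC against 10.86 to 11.08 on the ES arrays. Lefty1 was 3.21-fold and Nodal itself 2.13-fold lower. Otx2 was called in opposite directions, at 6.59 and 6.81 in F9 EC, 5.39 and 5.65 in ESCm, and 7.14 and 7.87 in ESCf.

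Several germ-line and 2-cell-like genes were lower in F9 than in both ES lines. ES cultures transcribe a set of germ-line genes, whose proteins guard the genome against transposons, and a few ES cells at a time express Zscan4 and other genes of the 2-cell embryo. Of 12 tested germ-line genes none was higher in F9 than in both ES lines and 7 were lower (58.3%, median -1.47). Over all autosomal genes 16.5% were lower. A probe was kept if every array of any 1 group detected it, and 11 listed genes were not kept. ESCm arrays detected 10 to 12 of the 12 genes, ESCf arrays 9 and F9 EC arrays 5 or 6. A gene kept through ES detection alone could hardly be higher in F9, so the filter can favour lower calls. The summed signal of the 12 genes was 6857 to 7075 on the F9 EC arrays, 15630 to 16000 in ESCm and 23570 to 25470 in ESCf. In P19 EC it was 519 to 573.4 and in EpiSCm 663.5 to 687.5, so F9 EC stood between these lines and the ES lines. Tdrd12, a Tudor protein of the piRNA pathway, measured 7.15 and 6.89 in F9 EC, 10.72 and 10.71 in ESCm, and at least 10.85 in ESCf (adjusted p = 3.8e-13). Tex19.1 measured 7.82 and 7.77 in F9 EC, 10.89 and 10.93 in ESCm, and 11.75 and 11.80 in ESCf (11.7-fold lower). Stk31, Dazl and Ddx4, genes of germ cells of which the last 2 encode RNA-binding proteins, were detected on all 4 ES arrays and on no F9 EC array, at least 3.11-fold, at least 2.15-fold and at least 1.58-fold lower. Piwil2, a partner of piRNAs, was 2.80-fold lower and Ooep 2.73-fold. Nanos3 was not called against both lines, at 7.13 and 6.73 in ESCm but undetected in both ESCf and F9 EC.

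The promoters of Ddx4 and Stk31 are shown because both contain CACGTG, the E-box that the germ-line gene repressors MGA and MAX recognise. The sequences are the 250 upstream bases of RefSeq promoter windows, 5′ to 3′ on the gene's strand, in build GRCm38.p6, with the motif in capitals. Of plus-strand windows 60.1%, and of minus-strand windows 60.7%, were placed exactly at the start of the gene in RefSeq. Ddx4 lies at chr13:112652311-112652560 on the minus strand and Stk31 at chr6:49395289-49395538 on the plus strand.
Ddx4: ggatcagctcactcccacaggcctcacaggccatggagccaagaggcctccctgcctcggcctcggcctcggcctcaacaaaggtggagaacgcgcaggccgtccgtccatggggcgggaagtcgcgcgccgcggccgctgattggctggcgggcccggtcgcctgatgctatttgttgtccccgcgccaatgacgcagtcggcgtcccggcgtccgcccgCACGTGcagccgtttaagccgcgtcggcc
Stk31: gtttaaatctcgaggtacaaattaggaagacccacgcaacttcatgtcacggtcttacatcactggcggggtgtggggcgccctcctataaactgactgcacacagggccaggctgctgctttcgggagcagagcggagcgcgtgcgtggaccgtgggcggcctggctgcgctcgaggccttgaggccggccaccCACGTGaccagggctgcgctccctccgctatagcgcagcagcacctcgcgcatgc
Both strands were searched, and CACGTG is its own reverse complement. It was found in 2 of the 6 lower germ-line genes with a window and in 6.02% of all 32851 windows. A match describes the letters and not a bound site.

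Of 6 tested genes of the 2-cell-like list, 5 were lower and none higher, and 3 were lower when either F9 EC array was left out. The lower share was 83.3%, against 16.5% of all autosomal genes, and the limit of the filter given for germ-line genes applies here too. Zscan4c, a marker of the state on chromosome 7, stood at 4.93 and 4.51 in F9 EC, 8.34 and 8.46 in ESCm, and 11.14 and 10.79 in ESCf (at least 15.4-fold lower, adjusted p = 1.5e-13). Tcstv3 stood at 5.11 and 4.58 in F9 EC, 6.39 and 6.24 in ESCm, and 10.67 and 10.22 in ESCf. Neither was detected in F9, and both were much higher in ESCf than in ESCm, by 2.57 and 4.13 log2 units. Zscan4c and Tcstv3 belong to clusters of near-identical copies, so a probe may read several of them. Tcstv1 and Arg2 were detected in neither ESCm nor F9 EC, so against ESCm their calls rest on values near background and no fold is given. Against ESCf they were at least 9.54-fold and at least 1.53-fold lower. Eif1a was detected on all 6 arrays and was lower by -0.49.

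Genes of cholesterol synthesis were higher in F9 than in both ES lines. The pathway builds cholesterol from acetyl-CoA through mevalonate and squalene, and its enzymes are transcribed together under the SREBP factors when cells lack sterols. Of 18 tested genes 12 were higher and none lower (66.7%, against 18.7% of all autosomal genes), and the list's median was 1.12. Leaving out chromosomes 4, 6, 8 and 12, which are described further on, left 10 higher of 16 tested, against 16.3% of the other autosomal genes.

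Along the pathway, Hmgcs1, which makes HMG-CoA, stood at 14.12 and 14.22 in F9 EC, 12.89 and 12.90 in ESCm, and 12.10 and 12.10 in ESCf (3.19-fold higher, adjusted p = 3.4e-09). In the mevalonate steps Pmvk was 1.61-fold, Mvd 3.69-fold and Fdps 1.84-fold higher. Sqle, the squalene epoxidase that limits the later steps, stood at 12.08 and 12.22 in F9 EC, 10.63 and 10.54 in ESCm, and 10.18 and 10.52 in ESCf (3.21-fold), and its other probe gave 2.33 log2 units. Lss, which closes the sterol rings, stood at 9.88 and 9.95 against 7.86 to 8.20 on the ES arrays (3.74-fold). In every one of these enzymes the F9 EC arrays exceeded all 4 ES arrays, but 3025 of the 3031 shared genes likewise showed no overlap.

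The later sterol enzymes followed. Msmo1, a methyl sterol oxidase, stood at 10.84 and 11.36 in F9 EC, 8.09 and 7.80 in ESCm, and 9.62 and 9.90 in ESCf, 4.74-fold higher with a gap between the ES lines. Hsd17b7 was 2.90-fold, Cyp51 2.35-fold, Dhcr7 2.00-fold and Sc5d at least 1.36-fold higher, and the sterol carrier gene Stard4 was 3.08-fold higher. Among the regulators, Srebf2 was not called (-0.21) and Srebf1 was detected on none of the 6 arrays. The brightest Insig1 probe was not called (-0.06) but its other probes were higher (0.71 and 1.12), and the Insig2 probes gave 0.30, not called, and -0.59, so neither gene has a single direction here. Idi1 (-0.36) and Tm7sf2 (0.71) were not called against both lines either. The summed signal of the 18 genes was 36440 to 38570 on the F9 EC arrays, 16530 to 16570 in ESCm, 12520 to 12850 in ESCf and 16080 to 16290 in P19 EC. High sums were not confined to F9, since EpiSCm reached 38820 to 40120.

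Promoters of 4 of these genes are shown for the CCAAT box, bound by NF-Y, a partner of the SREBP factors. Capitals mark CCAAT or its reverse complement ATTGG, and in Hmgcs1 also TCACNCCAC, a sterol regulatory element. The windows are again 250 upstream bases in GRCm38.p6. They are chr13:119690101-119690350, plus strand, for Hmgcs1 and chr10:76531355-76531604, plus strand, for Lss. The others are chr5:4104698-4104947, minus strand, for Cyp51 and chr8:64733579-64733828, minus strand, for Msmo1.
Hmgcs1: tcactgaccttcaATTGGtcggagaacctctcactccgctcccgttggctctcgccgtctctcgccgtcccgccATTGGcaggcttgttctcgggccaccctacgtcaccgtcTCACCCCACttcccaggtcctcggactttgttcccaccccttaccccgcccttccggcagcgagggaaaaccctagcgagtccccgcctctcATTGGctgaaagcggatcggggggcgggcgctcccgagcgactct
Lss: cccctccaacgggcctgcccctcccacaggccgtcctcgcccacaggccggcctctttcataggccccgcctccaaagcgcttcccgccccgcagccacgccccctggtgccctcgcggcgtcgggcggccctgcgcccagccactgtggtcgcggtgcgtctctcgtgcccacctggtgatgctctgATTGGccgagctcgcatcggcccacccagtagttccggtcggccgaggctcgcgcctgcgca
Cyp51: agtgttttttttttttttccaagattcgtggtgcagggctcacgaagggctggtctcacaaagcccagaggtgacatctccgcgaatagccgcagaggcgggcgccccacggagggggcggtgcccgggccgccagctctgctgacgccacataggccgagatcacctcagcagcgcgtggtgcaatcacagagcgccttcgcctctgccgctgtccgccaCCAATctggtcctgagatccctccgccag
Msmo1: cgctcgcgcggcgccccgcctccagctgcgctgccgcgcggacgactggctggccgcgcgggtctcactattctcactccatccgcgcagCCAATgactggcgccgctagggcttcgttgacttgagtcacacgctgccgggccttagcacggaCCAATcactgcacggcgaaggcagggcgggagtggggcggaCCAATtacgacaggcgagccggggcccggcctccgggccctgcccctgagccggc
CCAAT occurred on either strand in all 9 higher genes of the list that have a window, and in 33.8% of all windows. TCACNCCAC occurred in 1 of the 9 and in 1.05% of all windows, and CACGTG in 3 of the 9.

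**Figure D3:**
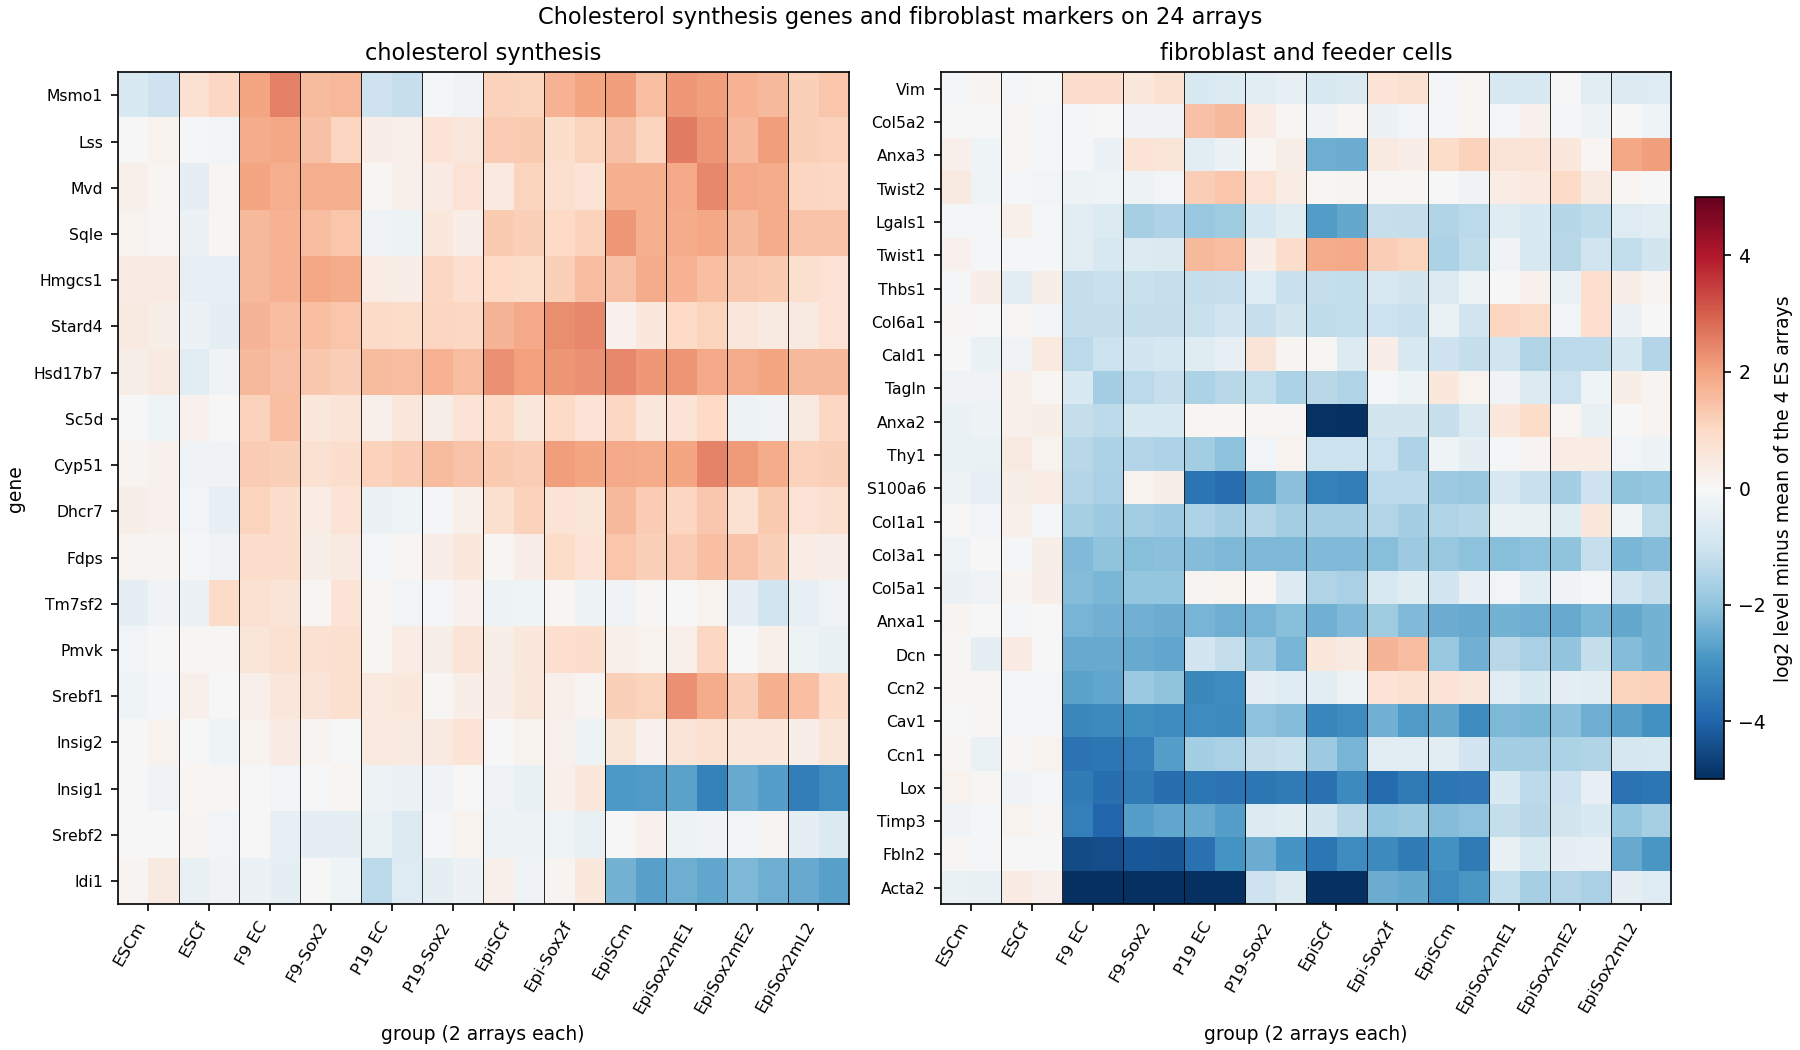
Heat maps of the tested cholesterol synthesis genes (left) and fibroblast markers (right) on all 24 arrays, as the log2 level minus the mean of the 4 ES arrays for that gene. F9 EC and F9-Sox2 columns are red for Msmo1, Lss, Mvd, Sqle and Hmgcs1, and blue for Acta2, Fbln2, Timp3 and Lox.

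Most tested fibroblast markers and matrix genes were lower in F9. Of 25 tested fibroblast and feeder markers 21 were lower and 1 was higher (84% and 4%, median -1.54). Of 32 tested matrix genes 20 were lower and 2 were higher (62.5% and 6.25%, median -1.11). All autosomal genes gave 16.5% lower and 18.7% higher. The limit of the filter given for germ-line genes applies to both lists, and may apply to others. Of the fibroblast list 7 genes were not kept, and of the matrix list 12. Timp3, an inhibitor of matrix proteases, measured 5.14 and 4.58 in F9 EC, 8.35 and 8.48 in ESCm, and 8.71 and 8.61 in ESCf (at least 6.98-fold lower). Lox, which cross-links collagen, measured 4.70 and 4.42 against 8.04 to 8.39 (at least 5.53-fold lower), and Timp2 was at least 6.39-fold lower. Cav1, a coat protein of caveolae, was at least 3.69-fold lower and the matrix protein gene Mgp at least 3.08-fold. Vim, the intermediate filament of mesenchymal cells, went the other way, at 10.92 and 10.94 in F9 EC against 9.98 to 10.20 (1.83-fold higher). Lama1, a basement membrane laminin, was 3.07-fold higher, while its partner Lamb1 was at least 2.99-fold lower and the collagens Col4a1 and Col4a2 were 2.16-fold and 2.17-fold lower. P19 EC had a marker sum of 5905 to 6155, below every F9 EC array, but detected 15 or 16 of the 25 markers against 8 in F9 EC.

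Slc2a1, Vegfa and Pdk1 were among the higher genes of glycolysis and the hypoxia response, and Pkm and Eno3 among the lower. Of 31 tested genes of glycolysis and the hypoxia response 10 were higher and 4 lower (32.3% and 12.9%, median 0.31), and 6 were higher without F9 EC replicate 2. Vegfa, the vessel growth factor, measured 10.29 and 10.15 in F9 EC, 7.76 and 7.85 in ESCm, and 9.11 and 9.18 in ESCf (3.35-fold higher). Slc2a1, the glucose transporter GLUT1, measured 13.68 and 13.90 against 12.26 to 12.46 (2.72-fold higher, adjusted p = 1.9e-08). Pdk1, which holds pyruvate back from mitochondria, was 2.40-fold higher. All 3 phosphofructokinase subunit genes were tested: Pfkl and Pfkm were 1.71-fold and 1.73-fold higher, and Pfkp was not called against both lines. Other probes of Pfkl (0.14) and Pfkm (-0.16) were not called. Pkm, a pyruvate kinase gene, was 1.45-fold lower and the enolase gene Eno3 2.52-fold lower. Of 31 respiratory chain genes 5 were higher and 5 lower, 16.1% each way and near the shares of all autosomal genes (18.7% and 16.5%). Cycs was among the lower ones (-1.34), but its other probe was higher (0.60).

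Among 36 tested genes of amino-acid and glutathione metabolism 12 were higher and 9 lower (33.3% and 25%, median 0.02). The higher ones were enzymes of serine and glycine synthesis, amino-acid transporters and genes of the amino-acid starvation response. Shmt2, the mitochondrial serine hydroxymethyltransferase, measured 10.81 and 10.71 in F9 EC, 8.27 and 8.15 in ESCm, and 9.17 and 9.04 in ESCf (4.29-fold). Phgdh and Psat1, earlier steps of serine synthesis, were 3.75-fold and 2.23-fold higher. Slc7a5, a transporter of large neutral amino acids, measured 13.62 and 13.83 against 11.28 to 11.98 (4.26-fold). Chac1, which degrades glutathione, was 5.33-fold higher, Atf5 4.50-fold, Trib3 3.35-fold and the asparagine synthetase gene Asns 2.01-fold. Atf4, the factor known to drive many of these genes, was itself lower, at 9.31 and 9.25 in F9 EC, 11.26 and 11.21 in ESCm, and 11.75 and 11.87 in ESCf (4.73-fold, adjusted p = 4.1e-08). The lower genes were otherwise antioxidant and detoxifying enzymes, with Gpx4 2.93-fold, Txnrd1 2.64-fold, Gsto1 2.49-fold and Gstp1 2.09-fold lower.

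Of 31 tested p53 targets and apoptosis genes 13 were lower and 2 higher (41.9% and 6.45%, against 16.5% and 18.7% of all autosomal genes), with a median of -0.36. Cdkn1a, the cell-cycle inhibitor p21, measured 6.72 and 6.96 in F9 EC, 9.06 and 8.84 in ESCm, and 9.40 and 9.33 in ESCf (4.99-fold lower, adjusted p = 1.8e-10), and its other probes were lower by -1.86 and -1.88. Pmaip1, the death protein Noxa, was at least 3.40-fold lower, Bbc3, known as Puma, 2.24-fold, Trp53inp1 3.53-fold and Ccng1 2.30-fold. Cdkn2b, an inhibitor of the cyclin D kinases, was undetected in F9 and at least 5.02-fold lower. Mdm2, the antagonist of p53 and one of its targets, was not called against both lines (-0.36). The higher pair was Bid (2.00-fold) and the stress gene Ddit4 (2.59-fold). Of 30 tested cell-cycle genes 9 were lower and 3 higher (30% and 10%). Plk1, a mitotic kinase, measured 7.12 and 6.94 against 9.80 to 10.04 (7.27-fold lower), whereas Cdc20 and E2f2 were 1.78-fold and 3.44-fold higher.

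Polycomb genes, whose complexes keep developmental genes silent, were lower at 10 and higher at 2 of 22 tested (45.5% and 9.09%, median -0.24). Without chromosomes 4, 6, 8 and 12, 6 of 16 were lower. Jarid2, which guides the PRC2 complex in ES cells, measured 5.82 and 6.12 in F9 EC, 7.88 and 7.85 in ESCm, and 8.06 and 8.03 in ESCf (3.94-fold lower). Its partner Mtf2 was 2.24-fold lower, and the core subunits Eed and Ezh2 1.73-fold and 1.70-fold. Suz12, the third core subunit, was not called against both lines (-0.33). Pcgf1, Pcgf5, Pcgf6 and Rnf2 of the PRC1 complexes were 2.41-fold, 1.75-fold, 1.54-fold and 1.89-fold lower. Phf19, another PRC2 partner, was 2.58-fold higher and Phc2 1.81-fold. Among 16 genes of DNA methylation 3 were higher and 4 lower (18.8% and 25%, against 18.7% and 16.5% of all autosomal genes). The methyltransferase genes Dnmt1 and Dnmt3b were not called (0.06 and 0.22).

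Imprinted genes, expressed from 1 parental copy, were lower at 12 and higher at 3 of 29 tested (41.4% and 10.3%, median -0.35). Phlda2, a growth-restraining gene of the placenta, measured 6.49 and 5.93 in F9 EC, 11.19 and 11.22 in ESCm, and 9.80 and 9.80 in ESCf (19.6-fold lower, adjusted p = 1.3e-13). Igf2, the fetal growth factor, measured 7.18 and 7.14 against 10.31 to 10.70 (10.2-fold lower). Peg3 and Dlk1 were undetected in F9, at least 2.73-fold and at least 1.81-fold lower, and Grb10 and Cdkn1c were 3.75-fold and 2.71-fold lower. Gnas, Nckap1 and Ppp1r9a were higher, by 2.15-fold, 1.42-fold and 3.27-fold. Dcn belongs to both this list and the fibroblast list, whose summed signals were given above.

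Shares of the signalling lists are to be read against the 18.7% higher and 16.5% lower of all autosomal genes. In the Nodal and Activin list 4 were higher and 7 lower of 22 (18.2% and 31.8%). Besides Nodal and the Lefty genes, the Activin subunit gene Inhba (at least 1.89-fold) and the receptor gene Tgfbr2 (at least 2.12-fold) were lower, whereas Tgfb1 (at least 2.28-fold) and Smad4 (2.01-fold) were higher. In the FGF and ERK list 5 were higher and 8 lower of 26 (19.2% and 30.8%). The ligand genes Fgf4, Fgf17 and Fgf15 were lower, Fgf17 by 2.59-fold and Fgf15 by at least 1.44-fold, and so was the immediate early gene Fos (4.80-fold). Feedback inhibitors and ETS factors were higher, with Spred1 2.70-fold, Spry4 2.41-fold and Etv1 2.95-fold. In the Wnt list 3 were higher and 7 lower of 25 (12% and 28%), among them the ligand gene Wnt7b (at least 3.26-fold lower), the transcriptional partner Ctnnb1 (1.53-fold lower) and the secreted antagonist Sfrp1 (3.43-fold higher). In the LIF list 3 were higher and 4 lower of 19 (15.8% and 21.1%), near the shares of all genes, and the receptor genes Lifr and Il6st were not called against both lines.

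Genes of extraembryonic endoderm, the lineage F9 cells form with retinoic acid, were more often lower than higher in F9. Of 22 tested genes of extraembryonic endoderm 10 were lower and 2 higher, Sox7 and Lama1. These shares, 45.5% and 9.09%, compare with 16.5% and 18.7% of all autosomal genes, and 12 listed genes were not kept. The summed signal of the 22 genes was 8381 to 8508 on the F9 EC arrays. It was 9669 to 10100 in ESCm and, near the F9 EC sums, 8495 to 8721 in ESCf. Gata6, which starts the endoderm program, measured 4.84 and 5.04 in F9 EC, undetected, against 5.78 to 6.44 on the ES arrays. The detection limits of the ES arrays were 5.44 to 5.72, not far below their Gata6 readings. Dab2 was also undetected in F9. Sox17 was detected on none of the 6 arrays. Of 18 retinoic acid response genes 5 were lower and 1 higher (27.8% and 5.56%). Stra8, a retinoic acid target of germ cells, measured 4.73 and 4.68 in F9 EC, 7.76 and 8.35 in ESCm, and 8.49 and 8.55 in ESCf (at least 5.88-fold lower), and Cdx1 was 4.45-fold lower. The receptor genes Rara and Rarb were detected on none of the 6 arrays, and the probes of Rarg gave 0.39, not called, and 1.04.

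Of 16 trophoblast genes 8 were lower and 2 higher (50% and 12.5%, against 16.5% and 18.7% of all autosomal genes). Gata2 was at least 3.33-fold and Tfap2c 2.75-fold lower, and Eomes 1.90-fold higher. In the neural and ectoderm list 5 were higher and 7 lower of 17 (29.4% and 41.2%). The homeobox gene En2, at 9.65 and 9.63 in F9 EC against 6.26 to 6.98, was 7.73-fold higher. Mapt, the axonal protein tau, was at least 3.36-fold lower. Of 9 tested Sox family genes 4 were higher (44.4%) and none lower, with Sox12 (at least 1.76-fold) and Sox13 (1.52-fold) beside Sox21 and Sox7. In the mesendoderm list 2 were higher and 4 lower of 13 (15.4% and 30.8%), the higher share being below that of all autosomal genes.

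Of 35 tested epithelial genes 11 were lower and 2 higher (median -0.49), and 6 were lower without F9 EC replicate 2. The shares over all 6 arrays were 31.4% lower and 5.71% higher, against 16.5% and 18.7% of all autosomal genes. Cldn4, a tight-junction claudin, measured 8.05 and 7.98 in F9 EC against 10.40 to 10.72 (5.97-fold lower), and Grhl2, a regulator of epithelial identity, was 4.27-fold lower. Cdh1, E-cadherin, was 1.57-fold lower and Cdh3, P-cadherin, 2.75-fold higher. Of 27 surface antigens 8 were lower and 5 higher (29.6% and 18.5%). Alpl, the alkaline phosphatase used to stain pluripotent colonies, measured 7.27 and 7.29 in F9 EC, 9.94 and 9.87 in ESCm, and 10.09 and 10.14 in ESCf (6.64-fold lower, adjusted p = 2.6e-11). Icam1 was 4.51-fold lower and the laminin receptor subunit Itga6 2.77-fold higher.

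Of 19 tested genes of MHC class I and antigen processing 3 were lower and 1 higher, and the lower share of 15.8% is about that of all autosomal genes (16.5%). B2m, the light chain of class I molecules, measured 7.34 and 7.14 against 8.82 to 9.14 (3.33-fold lower), and the family of class I heavy chain genes has near-identical members that probes may not separate. Among 23 interferon-induced genes 5 were lower and 1 higher (21.7% and 4.35%). Ifitm1 was 9.16-fold and Ifitm3 6.83-fold lower, and the higher gene, Adar, rested on 1 probe, since its other 2 gave -0.38 and -0.29 and were not called.

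**Figure D4:**
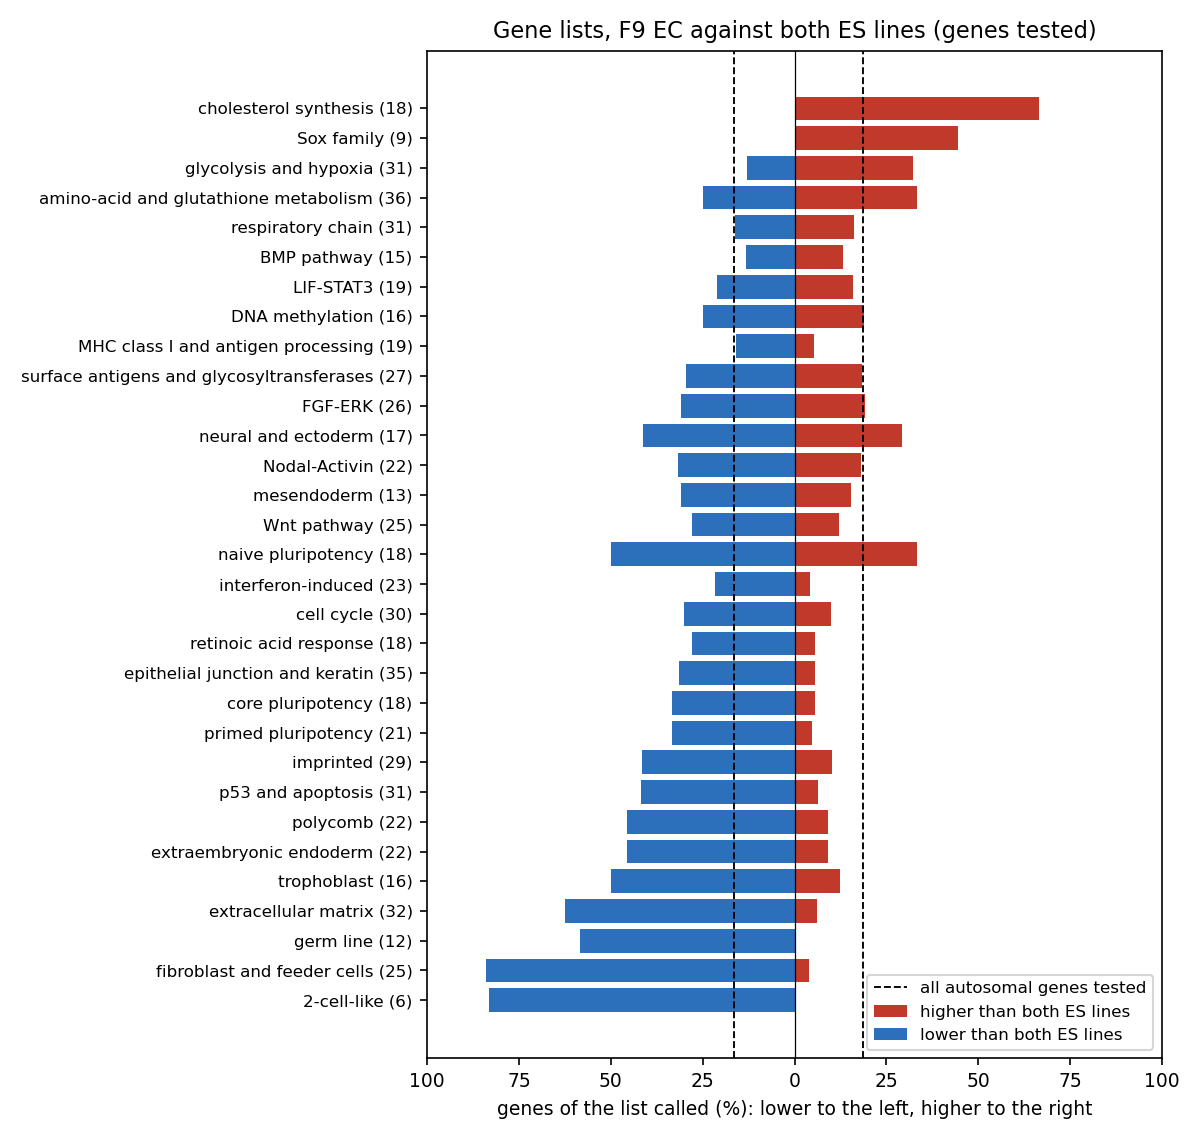
Share of the tested autosomal genes of each list called higher (red, to the right) or lower (blue, to the left) than both ES lines, with the number tested in brackets and dashed lines at the shares over all autosomal genes (18.7% and 16.5%). Cholesterol synthesis extends farthest to the right, and the 2-cell-like and fibroblast lists farthest to the left.

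Shared genes were unevenly spread over chromosomes. On chromosome 8, 36.6% of 481 tested genes were higher and 7.9% lower, with a median difference of 0.38. Chromosome 12 had 31.6% of 291 and chromosome 4 had 25.4% of 586 genes higher. Chromosome 6 had 24.4% of 438 genes lower and 19.4% higher. Chromosome 16 had the lowest share of higher genes, 8.81% of 261. Median scaling, however, turned its split from 23 higher and 50 lower to 38 higher and 33 lower. Between the ES lines the medians of these 5 chromosomes were between -0.08 and -0.01.

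The unevenness ran in stretches of neighbouring genes. In blocks of 50 neighbouring tested genes, taken in their order on GRCm38.p6 and examined after the data had been seen, the median difference of the 174 blocks ranged from -0.74 to 0.89, with quartiles at -0.08 and 0.15. Medians exceeded 0.4 in 13 blocks and were under -0.4 in 4, while between the ES lines no block passed 0.4 in either direction (range -0.33 to 0.26). The highest block was the distal end of chromosome 12, from Wdr20 to Sp8, with 26 of 41 genes higher. Its median relative level, each gene centred over all 24 arrays, was 0.57 and 0.56 on the F9 EC arrays, between -0.30 and -0.22 on the ES arrays, and -0.30 and -0.33 on the P19 EC arrays. The F9-Sox2 arrays, from the same line with Sox2 overexpressed, gave 0.49 and 0.59.

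The block before it on chromosome 12, from Adck1 to Hsp90aa1, had a median of 0.87 with 31 of 50 genes higher. Next came blocks of chromosome 8 from Ciapin1 to Pla2g15 (26 of 50 higher, median 0.69) and of chromosome 4 from Rnf11 to Tmem125 (28 of 50 higher, median 0.67). Lower blocks included chromosome 6 from Mad2l1 to Actg2, with 27 of 50 genes lower and none higher (median -0.73), and the distal end of chromosome 3 from Ccn1 to Wls, with 14 of 22 lower (median -0.74). In the chromosome 6 block the F9 EC arrays read -0.58 and -0.66, the F9-Sox2 arrays -0.44 and -0.58, and the ES arrays -0.01 to 0.32. In the chromosome 3 block F9 EC read -0.43 and -0.54 and the ES arrays 0.10 to 0.38. The epiblast stem cell line EpiSCf read -0.46 and -0.59 there, so low levels also occurred outside F9. That block also had the lowest median between the ES lines (-0.33). A block of chromosome 4 from Zfp46 to Pramel20 was also lower (26 of 50, median -0.69), but it holds Pramel and zinc finger genes whose near-identical copies probes may not separate. DNA copy number was not measured in this comparison, and its part in these blocks was not tested.

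Runs of neighbouring called genes lay within or across blocks. The longest run of higher genes held 11 neighbours on chromosome 12: Trmt61a, Bag5, Coa8, Klc1, Xrcc3, Zfyve21, Ppp1r13b, Atp5mpl, Aspg, Tmem179 and Inf2, with differences of 0.49 or more against each ES line. A run of 8 on chromosome 4 went from Efcab14 to Pomgnt1 and 1 of 7 from Tmem125 to P3h1, which includes Slc2a1. The longest runs of lower genes were 10 on chromosome 4 from Pdpn to Zfp979, 8 on chromosome 6 from Herc3 to Eif2ak3, which includes Mad2l1 and Gadd45a, and 6 on chromosome 3 from Hs2st1 to Ccn1. Of the chromosome 3 run, Ccn1 alone falls in the block named above, and the runs from Tmem125 to P3h1, from Pdpn to Zfp979 and from Herc3 to Eif2ak3 each cross a block border. Several genes described above are on the chromosomes concerned, among them Aspg, Tmem179, Otub2, Esrrb and Tcl1 on chromosome 12, Mvd, Msmo1, Zfp42 and Slc7a5 on chromosome 8, and Nanog, Dppa3, Ezh2 and Pcgf1 on chromosome 6. These genes are listed by chromosome alone, whichever way they differed. A place on such a chromosome does not put a gene in a block shifted its way. On chromosome 8 the block from Dlc1 to Ndufa13 had 11 of 50 genes higher, 8 lower and a median of -0.05. Chromosome 6 also held higher blocks, such as that from Irak2 to Grcc10 (22 of 50 higher, 6 lower, median 0.47).

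**Figure D5:**
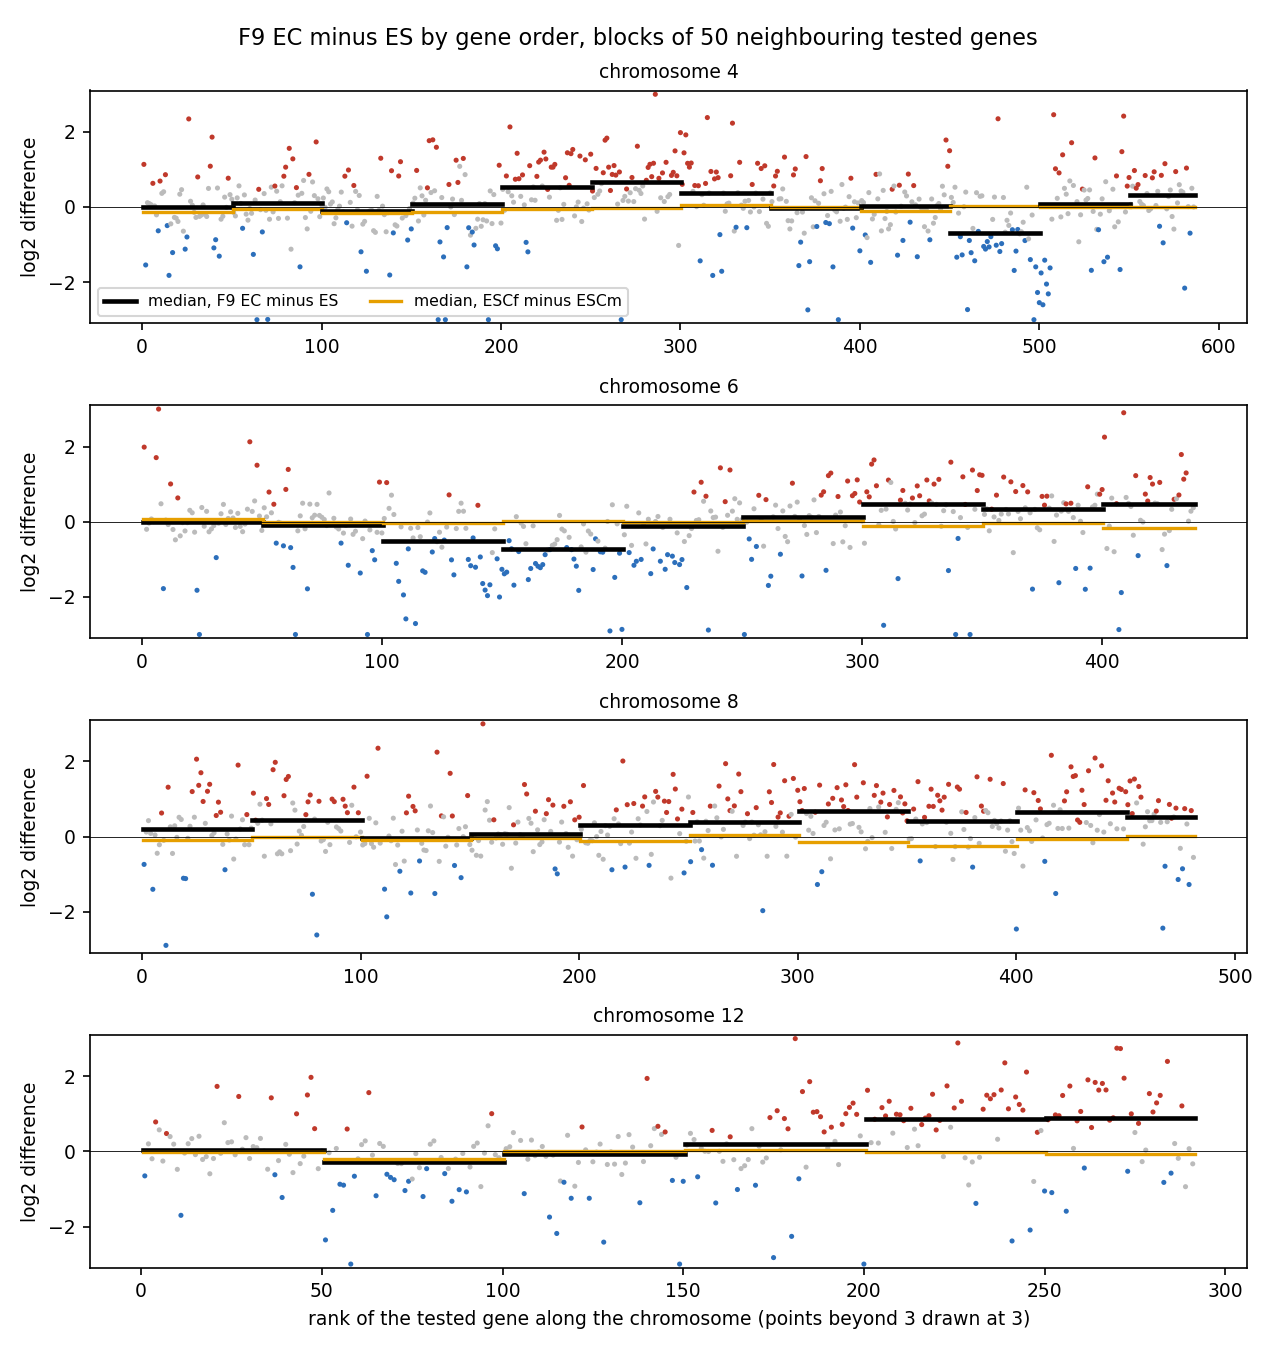
Log2 difference of F9 EC from the ES lines for each tested gene of chromosomes 4, 6, 8 and 12, in gene order, with called higher genes red and lower genes blue. Black bars are block medians for F9 EC minus ES and orange bars those for ESCf minus ESCm; the black bars rise to 0.89 at the end of chromosome 12 and fall to -0.73 on chromosome 6, while the orange bars stay near 0.

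A small set of autosomal genes, 57 (0.662% of those tested), was called in opposite directions against the ES lines. Rcsd1, a regulator of actin capping, had the largest opposite calls: 6.33 and 6.38 in F9 EC, 5.24 and 4.86 in ESCm, and up to 9.09 in ESCf. Slc51a, a steroid transporter subunit, read 7.31 and 7.48 in F9 EC, between 6.09 and 6.39 in ESCm and 8.93 and 8.89 in ESCf. Serpinb6c, Vangl1 and 2610524H06Rik showed the same order, with F9 EC between the ES lines.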

How the data were processed

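The probe intensities and their detection p-values were used as deposited, in a table deposited as non-normalized. Per the submitters' processing notes, BeadStudio 3.2 was used, and RMA and lumi are also listed. A second deposited table holds the authors' processed values, which read as log2 values (median 3.68) and correlated at 0.992 with the values computed here; it served as an alternative, and its centring is not stated in the sources used here.

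Intensities were background-corrected with limma 3.58.1 in R 4.3.3 (normexp with the background inferred from detection p-values, offset 16), quantile-normalized over all 24 arrays and put on the log2 scale. Probes detected at p under 0.01 on every array of at least 1 group were kept (13082 of 25697). The platform annotation gave 23978 probes 1 symbol, none several and 1719 none, and 23962 matched RefSeq genes of GRCm38.p6. The brightest kept probe, by its mean over the arrays, stood for each gene; 2395 of 8932 genes had more than 1. In 892 shared genes with other probes, all of them gave the same call in 532 and any gave the opposite call in 28.

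A model with 1 mean per group over 24 arrays was fitted with limma (12 residual and 5.58 prior degrees of freedom), with Benjamini-Hochberg adjustment over all genes tested. It was tested on simulated data. Every adjusted p is from this model, and the number of arrays limits its precision. A shared gene was called against ESCm and against ESCf with the same sign. Genes were named by rule: pluripotency markers, the 15 largest rises and falls, up to 4 called members of each list, the 3 longest runs each way and the 5 largest opposite calls; further list members and other genes were added after their values were seen. The largest rises and falls came from shared genes detected on every array of the higher side, with F9 EC and ES arrays not overlapping. The genes, lists and tests were chosen with earlier results of these data known. Replicate numbers did not pair the arrays. Alternatives changed the background, offset, scaling, filter, probe choice, arrays fitted, replicate block and each array in turn; lists without 4 chromosomes were added after seeing the data. Promoters are from RefSeq, and 452 of 599 list members had one.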

Additional observations from a re-analysis of the deposited data

Results flagged for a closer look

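Of 155 named autosomal genes called in one direction against both ES lines, 56 also differed between ESCf and ESCm (limma, adjusted p under 0.05), against 23.3% of all genes tested. Values are log2 differences of ESCf from ESCm, and a test of this difference is also the test of whether F9 EC stands at unequal distances from the lines.

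The named genes with opposite calls were higher in ESCf: Rcsd1 (3.999), Slc51a (2.67), 2610524H06Rik (2.11), Serpinb6c (1.96) and Vangl1 (1.86). In the 2-cell-like and germ-line groups the values were Tcstv3 (4.13), Tcstv1 (3.85), Zscan4c (2.57), Arg2 (1.23), Dazl (2.18), Stk31 (1.39), Tex19.1 (0.87), Ooep (0.74) and Ddx4 (-0.92), with Ddx4 alone lower in ESCf among these 9. Among pluripotency genes they were Tcl1 (1.42), Gbx2 (-1.32), Utf1 (-0.80), Dppa3 (-0.73), Lin28a (-0.61), Nr5a2 (-0.53), Jam2 (1.01), Pecam1 (0.79), Manba (0.44) and Lefty1 (0.61). Cholesterol genes went both ways, with Msmo1 (1.82), Hmgcs1 (-0.79), Hsd17b7 (-0.75) and Stard4 (-0.73). Amino-acid and stress genes were higher in ESCf: Atf5 (1.68), Chac1 (1.495), Trib3 (0.90), Shmt2 (0.89), Slc7a5 (0.60), Asns (0.49), Vegfa (1.34) and Pmaip1 (1.02). Imprinted genes gave Dlk1 (1.44), Phlda2 (-1.40), Grb10 (-1.24) and Cdkn1c (-0.88), and signalling genes Id1 (-1.31), Bmp4 (-1.02) and Spry4 (-1.12). Among the largest rises and falls the values were 2210409E12Rik (-1.72), Sox21 (1.08), Olig1 (-1.04), Fabp3 (0.86), Hspb6 (0.79), Pon2 (-0.77), Acta2 (0.70), Sox7 (0.65) and Tgfbi (0.62). The remaining genes were Lamb1 (-0.93), Cdh3 (-0.82), Icam1 (0.67), Dab2 (-0.63), Col4a2 (0.63), Ezh2 (-0.58), Eed (-0.55), Grhl2 (0.52) and Gadd45a (-0.48). No group could be examined for a stray array, since each has 2.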

How the results depend on the processing

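The 6 counts of calls kept within 1.5 times their value under every alternative except 1 count. Genes called between ESCf and ESCm went from 2083 to 1351 without ESCm replicate 1 and to 1292 without ESCm replicate 2, with a range of 1292 to 1403 over the arrays left out; these fits have fewer arrays. The shared autosomal genes numbered 2384 to 2614 with 1 array left out, 2852 with the authors' log2 values and 3255 with only the arrays compared. The other ranges with 1 array left out were 3396 to 3552 for F9 EC against ESCm, 3633 to 3698 against ESCf, 3776 to 4511 against both pooled and 4175 to 4241 against P19 EC. Where a group was left with 1 array, that array was assumed to vary like the other groups. Median scaling shifted the split of the pooled calls to 3003 higher and 1825 lower, against 2481 and 2299. It gave 2413 and 1804 against ESCm, 3063 and 1556 against ESCf, and 749 and 1319 for ESCf against ESCm. Replicate numbers did not pair the arrays (correlations of deviations from -0.00835 to 0.0199), and with the replicate block 2995 genes were shared. Insig1 reversed, from -0.06 to 0.59, when its probes were averaged, and Sox2 was then called lower (-0.69); in both genes the probes disagree. Of 260 genes followed, 13 lost their pooled call under some alternative and 8 gained one. For probes undetected on one side only the folds given as at least are bounds; their fitted log2 differences rest on values near background.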
